A study of Mus musculus with 6 samples.

Results

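The 10 genes described here encode enzymes that synthesize nicotinamide adenine dinucleotide (NAD), consume it, or act on its precursor nicotinamide. They were found by their symbol in the gene column of the deposited table, and 10 of 10 listed genes were present among 33924 gene symbols. They are Nampt, Nmnat1 and Nmnat3 on the side of synthesis, Nnmt, which removes the precursor nicotinamide, Cd38, Bst1 and Parp1 on the side of consumption, and the sirtuins Sirt1, Sirt3 and Sirt4. RNA came from RPE/choroid, the retinal pigment epithelium with the vascular layer under it, of C57BL/6J mice. There were 3 young and 3 aged libraries, each made from a pair of eyes. The young mice were 1 to 2 months old by the labels, and the aged mice 20 to 24 months by their titles and 22 to 24 months by their time label. The methods of the study give an older range for the young mice, and they name both sexes where the labels name males. The labels name no transgene, mutant allele or treatment for either age. The value for each gene is the authors' mean of normalized counts over all 6 libraries, young and aged together, so it has no replicate error of its own. The columns of the table that compare the ages hold the result of the study itself and were not used. Values per library or per age were not analysed here, and every difference below is a difference between genes in the pooled tissue, with no test.

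NAD is a redox carrier that several enzymes also cleave, which releases nicotinamide. In mammals most of it is rebuilt from that nicotinamide in the salvage pathway. Nampt makes nicotinamide mononucleotide from nicotinamide in the rate-limiting step, and the Nmnat enzymes, which sit in the nucleus, at the Golgi or in mitochondria, turn the mononucleotide into NAD. Sirtuins couple the cleavage of NAD to the removal of acyl groups from lysine, poly(ADP-ribose) polymerases use it to build chains on proteins near DNA breaks, and Cd38 and Bst1 hydrolyse or cyclize it at the cell surface. In the retina this supply is known to matter to photoreceptors, and variants of human NMNAT1 cause a congenital form of blindness.

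Levels are given in 2 ways. The first is the mean in normalized counts, as the table gives it. The second, on which genes are compared, is the mean divided by the length of the longest annotated transcript in units of 1000 bases. The methods of the study describe the counts as made from TPM, an abundance per total of transcripts that is already corrected for length, and do not say whether that correction remained in them. In 5 classes of protein-coding genes by length, the median rose from 55.2 normalized counts at a median length of 1224 bases to 889 at 6572 bases. After division it rose from 50.9 to 128 normalized counts per kilobase. Whether length or the kind of gene gives this rise was not tested. If the correction remained, the undivided means are the levels to compare, so values without division are given beside many of the comparisons.

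Among the 18070 protein-coding genes with a mean above 0 and a known length, the median was 100.2 normalized counts per kilobase, with quartiles at 15.2 and 279.7. On that scale 6 of the 10 genes lay above the median and 4 below it, and 2, Nampt and Parp1, lay above the upper quartile. Without division 5 lay above the median of these genes, which was 322 normalized counts, as Sirt4 fell below it. Together the 10 genes held 0.0411% of the summed mean of all genes.

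**Figure D1:**
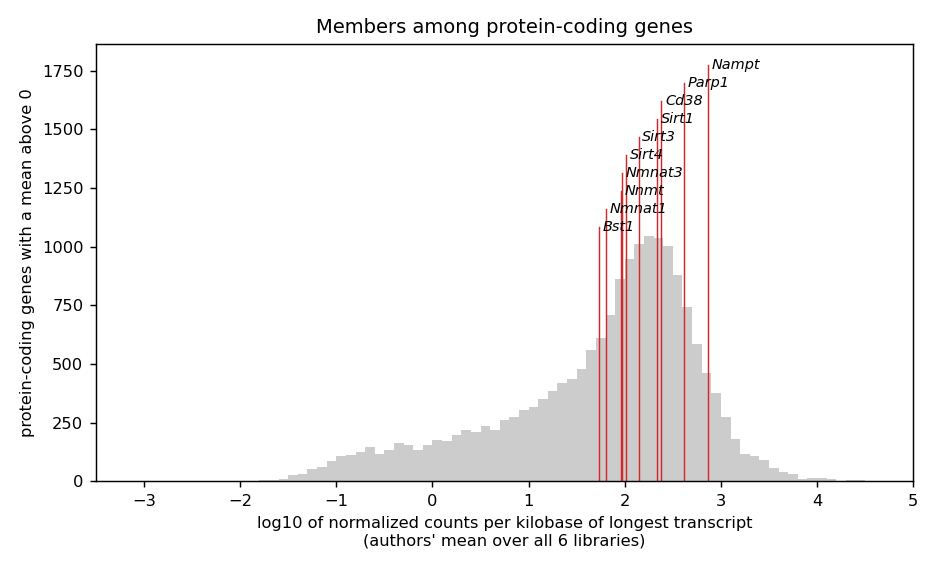
Histogram of protein-coding genes by log10 of the authors' mean over 6 libraries, in normalized counts per kilobase of the longest transcript, with a red line for each of the 10 genes. Nampt lies farthest to the right at 725 normalized counts per kilobase and Bst1 farthest to the left at 53.9, and 6 of the 10 lie above the median of 100.2.

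The start regions of 4 of the genes are shown first, because annotated exons cover at most 15 of their bases and they range widely in CpG dinucleotides. RefSeq (GRCm38.p6) gave start regions for 8 of the 10 genes, all but Nnmt and Bst1, and the 250 bases before each start were read. The printed regions lie on chromosome 12 at chr12:32820085-32820334 (Nampt, plus strand), on chromosome 10 at chr10:63339036-63339285 (Sirt1, minus strand), on chromosome 1 at chr1:180568641-180568890 (Parp1, plus strand) and on chromosome 9 at chr9:98296320-98296569 (Nmnat3, plus strand). The RefSeq start can lie inside the GENCODE gene. It was 42669 bases downstream of the first GENCODE base for Sirt1, 9135 for Nmnat3 and 790 for Nampt, and 33 bases upstream of it for Parp1. Among the regions that are not printed, it was 256 bases downstream for Cd38, so that the 250 bases read lie within the GENCODE gene, and 428 for Sirt4. A GENCODE transcript of the same gene starts at the RefSeq start of Sirt1 and Nampt, and 13 bases from that of Nmnat3. Each region is written 5′ to 3′ on the strand of the gene, with CpG in capitals.
Nampt: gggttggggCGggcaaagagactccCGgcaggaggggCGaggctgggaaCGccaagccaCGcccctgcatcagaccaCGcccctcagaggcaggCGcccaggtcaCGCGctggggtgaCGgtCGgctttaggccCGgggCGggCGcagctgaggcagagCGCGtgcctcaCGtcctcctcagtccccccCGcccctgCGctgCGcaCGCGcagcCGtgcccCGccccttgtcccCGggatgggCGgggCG
Sirt1: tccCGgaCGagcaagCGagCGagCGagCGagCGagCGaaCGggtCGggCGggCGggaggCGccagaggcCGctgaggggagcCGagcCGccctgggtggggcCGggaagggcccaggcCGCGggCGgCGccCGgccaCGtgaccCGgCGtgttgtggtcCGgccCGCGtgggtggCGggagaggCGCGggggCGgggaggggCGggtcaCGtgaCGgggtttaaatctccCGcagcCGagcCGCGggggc
Parp1: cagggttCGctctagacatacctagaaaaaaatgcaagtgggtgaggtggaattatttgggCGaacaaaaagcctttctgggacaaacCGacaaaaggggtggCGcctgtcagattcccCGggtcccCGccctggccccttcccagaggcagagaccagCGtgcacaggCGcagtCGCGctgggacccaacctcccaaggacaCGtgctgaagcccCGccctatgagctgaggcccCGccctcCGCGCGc
Nmnat3: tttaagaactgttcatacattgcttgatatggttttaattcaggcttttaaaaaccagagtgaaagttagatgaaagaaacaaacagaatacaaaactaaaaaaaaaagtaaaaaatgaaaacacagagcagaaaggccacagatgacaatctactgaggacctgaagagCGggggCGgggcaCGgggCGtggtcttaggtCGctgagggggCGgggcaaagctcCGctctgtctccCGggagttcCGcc

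CpG dinucleotides before the start numbered 39 for Sirt1, 27 for Nampt, 24 for the first region of Nmnat1, 21 for the first region of Sirt3, 16 for Parp1, 14 for Sirt4, 9 for Nmnat3 and 1 for Cd38. The median of all 32851 regions was 6. Sirt1 therefore lay above 98.4% of regions and Cd38 above 7.87%. Nmnat1 and Sirt3 each had a second start, with 23 and 18 CpG. Between 204 and 250 of the 250 bases before the starts of Nmnat1, Cd38, Sirt3 and Sirt4 are covered by annotated exons, so these regions are counted but not printed.

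Genes poor in CpG before the start had the lower levels per kilobase. Among 12668 protein-coding genes with a mean above 0 and a start region, the median was 12.2 normalized counts per kilobase for the 3392 genes with at most 5 CpG, 134 for the 5738 genes between the limits and 184 for the 3538 genes with at least 20. Both limits were set with the data in view, and a gene with more than 1 start was placed by its first. Cd38, with 1 CpG in a region that lies within its GENCODE gene, was above 85.1% of the genes with at most 5. Nampt was above 90.6% of the genes with at least 20, Sirt1 above 56.0%, Sirt3 above 40.7% and Nmnat1 above 22.6% of them. Parp1 was above 81.6% of the genes between the limits, Sirt4 above 43.1% and Nmnat3 above 40.3%. Thus, by the first start, 4 of the 8 members with a start region lay above the median of their class and 4 below it. By its second start, with 18 CpG, Sirt3 would fall between the limits. Its 139 normalized counts per kilobase lie above the median of 134 there, and its 446 without division above 427. Without division the medians were 27.6, 427 and 700.6 normalized counts, and the shares were 85.2% for Cd38, 91.7% for Nampt, 59.9% for Sirt1, 36.5% for Sirt3, 19.1% for Nmnat1, 83.9% for Parp1, 30.5% for Sirt4 and 32.2% for Nmnat3.

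**Figure D2:**
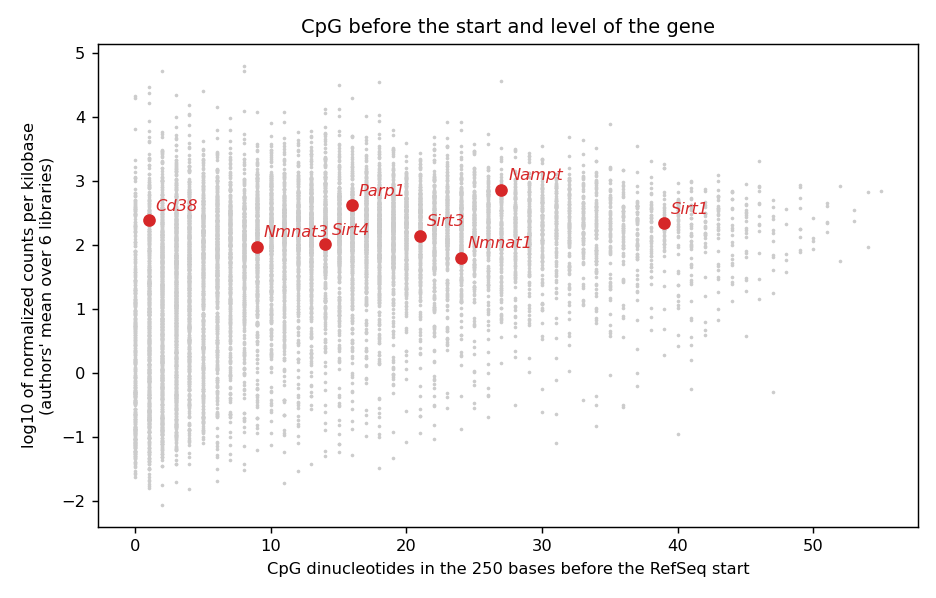
CpG dinucleotides in the 250 bases before the RefSeq start against log10 of the authors' mean over 6 libraries in normalized counts per kilobase, 1 grey point per protein-coding gene with a mean above 0 and red points for the 8 members with a start region. Cd38 sits at 1 CpG with 241 normalized counts per kilobase, and Sirt1 and Nampt sit at 39 and 27 CpG. Genes with more than 1 start are shown by the first.

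The E-box CACGTG, which is bound by basic helix-loop-helix factors such as those of the circadian clock, was searched on both strands and reads the same on each. It occurred in 6.02% of all regions, and 2 or more copies in 0.429%. The region of Sirt1 held 2 copies and that of Parp1 held 1, and none was found before the starts of Nampt, Nmnat1, Nmnat3, Cd38, Sirt3 and Sirt4. TATAAA occurred in 12.4% of all regions on either strand and in 0 of the members' regions. CACGTG itself holds a CpG, and the regions of Sirt1 and Parp1 hold 39 and 16 CpG against a median of 6 over all regions. No share among regions of like CpG number was computed. These are matches of letters and were not tested for binding.

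Among the enzymes of synthesis, Nampt had the highest level of all members. It lies on chromosome 12 at 32819545 to 32853349 (GRCm38, plus strand), and the longest of its 3 annotated transcripts has 4527 bases. Its mean was 3284 normalized counts, with 725 per kilobase, above 91.8% of protein-coding genes. Read on the transcript strand, its transcripts share none of their 31-base words with another gene.

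Both Nmnat genes on the list were far below Nampt. Nmnat1, the nuclear enzyme, lies on chromosome 4 at 149467572 to 149485202 and had a mean of 169 normalized counts and 63.4 per kilobase. Nmnat3, described as the mitochondrial enzyme, lies on chromosome 9 at 98287435 to 98420438 and had a mean of 202 normalized counts and 93.2 per kilobase. Per kilobase Nampt was 11.4 times Nmnat1 and 7.78 times Nmnat3, or 16.1 times Nmnat3 by the union of exons. Without division it was 19.5 times Nmnat1 and 16.3 times Nmnat3. Nmnat3 was 1.47 times Nmnat1 by the longest transcript and 0.727 times by the union of exons, so their order depends on the length chosen. Nmnat2, the third member of the family, which is known from axons and associates with the Golgi, had a mean of 499 normalized counts and 107 per kilobase. It was 1.69 times Nmnat1 per kilobase, 2.75 times by coding length and 2.96 times without division.

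Nmnat1 has a close neighbour. Its upstream end lies 26 bases from Lzic on the other strand, and Lzic had a mean of 511 normalized counts. Of its 31-base words 92.1% occur in no other gene, the lowest share among the 10 members, and 5.28% are shared with 1 other annotated locus. The other 9 members had between 97.3% and 100% of their words to themselves. Words were read on the strand of each transcript only. Exons that overlap on the opposite strand, such as those of Sirt3 and Bst1, are therefore not seen in these shares.

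Nnmt, the methyltransferase that commits nicotinamide to excretion and so takes it out of salvage, had a mean of 95.6 normalized counts. It lies on chromosome 9 at 48591877 to 48605153. Its longest transcript has only 1043 bases, and per kilobase it reached 91.7, against 93.2 for Nmnat3. The ratio of Nmnat3 to Nnmt was 1.02 by the longest transcript, 0.665 by the union of exons, 2.28 by coding length and 2.11 without division. Per kilobase Nampt was 7.91 times Nnmt by the longest transcript and 18.5 times by coding length, and without division 34.4 times.

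Consumers of NAD at the cell surface were next. Cd38 and Bst1 are paralogous ADP-ribosyl cyclases and lie side by side on chromosome 5, on the plus strand, with 24566 bases between them. Cd38, at 43868553 to 43912375, had a mean of 787 normalized counts and 241 per kilobase. Bst1, at 43818885 to 43843986, had a mean of 154 normalized counts and 53.9 per kilobase, the lowest of all members by the longest transcript, where Nmnat3 was lowest by the union of exons and Nnmt by coding length. Cd38 was 4.46 times Bst1 per kilobase, and between 4.36 and 5.23 times with the other lengths. Exons of Bst1 overlap those of Fbxl5 on the opposite strand by 98 bases, and Fbxl5 had a mean of 4856 normalized counts. The library kit keeps the strand, but whether the counting used it is not given in the sources used here, so reads in this stretch cannot be told apart.

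Parp1, the polymerase that responds to DNA strand breaks and accounts for most poly(ADP-ribose), had the second highest level by the longest transcript. It lies on chromosome 1 at 180568924 to 180601254, and its longest transcript has 23 exons. Its mean was 1607 normalized counts and 415 per kilobase, above 83.6% of protein-coding genes. Per kilobase it stood at 1.72 times Cd38, but at 0.612 times by coding length, and at 2.01 times its paralog Parp2, which had 207. Without division Parp1 was 3.58 times Parp2. Of the rest of the family, the tankyrase Tnks2, which modifies proteins of telomeres and Wnt signalling, was the highest, at 997 per kilobase and 2.40 times the level of Parp1, or 4.02 times without division.

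The sirtuins on the list covered a narrower range. Sirt1, a deacetylase of the nucleus that acts on histones and transcription factors, had a mean of 964 normalized counts and 218 per kilobase, on chromosome 10 at 63319005 to 63381704. Sirt3, the main deacetylase of mitochondria, had 446 and 139, on chromosome 7 at 140863666 to 140882309. Sirt4, a mitochondrial enzyme with lipoamidase and ADP-ribosyltransferase activities, had 185 and 103, on chromosome 5 at 115478010 to 115484725. Sirt1 was 2.11 times Sirt4 per kilobase, and between 2.35 and 2.36 times with the other lengths, and 5.22 times without division.

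The place of Sirt3 depended on the length used. Per kilobase Sirt1 was 1.56 times Sirt3 by the longest transcript, 2.42 times by the union of exons and 0.906 times by coding length. The longest annotated transcript of Sirt3 has 1 exon, against 14 for Sirt1 and 5 for Sirt4. Exons of Sirt3 overlap those of Psmd13 by 342 bases and those of Ric8a by 418 bases, both on the opposite strand, and Psmd13 had a mean of 1511 normalized counts. The split of reads between these genes was not tested. Sirt3 was 1.35 times Sirt4 by the longest transcript, 0.970 times by the union of exons, 2.60 times by coding length and 2.42 times without division.

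All 7 sirtuin genes of the mouse were in the table. Sirt2, a mainly cytoplasmic deacetylase, had 412 normalized counts per kilobase, Sirt7, which is nucleolar, had 167, Sirt5, a mitochondrial desuccinylase, had 98.7, and Sirt6, a chromatin enzyme, had 45.7. Sirt6 was the lowest by each of the 3 lengths. Sirt2 was the highest by the longest transcript and by coding length, and Sirt1 by the union of exons. Without division Sirt2 was 0.904 times Sirt1. Sirt7 held the third place by each of the 3 lengths.

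**Figure D3:**
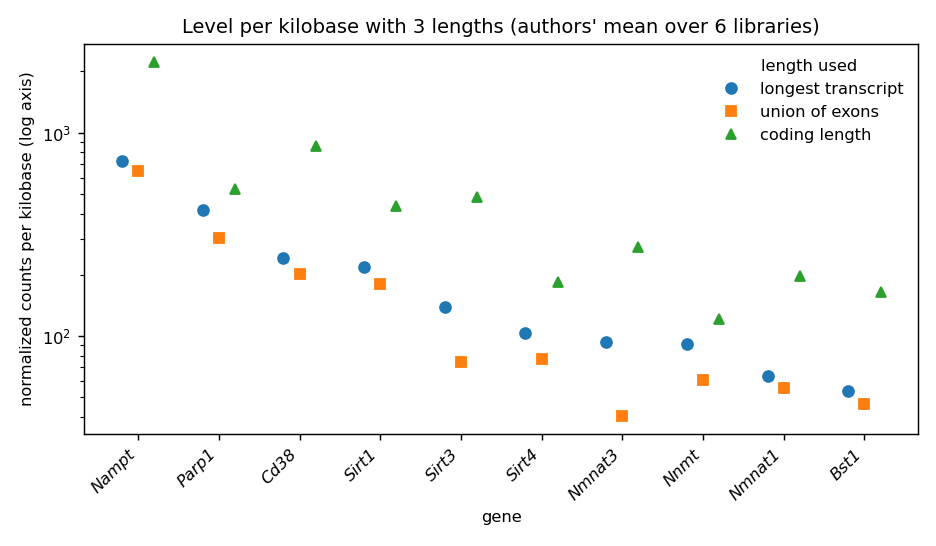
Normalized counts per kilobase (log axis, authors' mean over 6 libraries) of the 10 genes with the longest transcript (circles), the union of exons (squares) and the coding length (triangles) as divisor. Nampt is highest by each length, and Nmnat3, with 93.2, 40.4 and 275 normalized counts per kilobase, changes place the most.

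Across the 10 genes the order per kilobase by the longest transcript ran from Nampt through Parp1, Cd38, Sirt1, Sirt3, Sirt4, Nmnat3, Nnmt and Nmnat1 to Bst1, over a range of 13.4 times. Nampt kept the first place by each of the 3 lengths. Parp1 and Cd38 exchanged the second and the third place by coding length. Nmnat3 moved between place 6 and place 10, and Nnmt between place 7 and place 10. Neighbours in this order that turned with another length were Parp1 and Cd38, Sirt1 and Sirt3, Sirt3 and Sirt4, Sirt4 and Nmnat3, Nmnat3 and Nnmt, and Nnmt and Nmnat1. Nmnat1 stayed above Bst1 by each of the 3 lengths and without division. Cd38 was 1.11 times Sirt1 by the longest transcript and above it by each length, but 0.817 times without division. Without division the order ran from Nampt through Parp1, Sirt1, Cd38, Sirt3, Nmnat3, Sirt4, Nmnat1 and Bst1 to Nnmt, over a range of 34.4 times.

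The members were set beside 4 lists of the wider pathway. Of 22 genes on the list of NAD synthesis, 20 were in the table, 3 of them through an older symbol of the same gene. The list is broad and also holds Nadk, Nnt, Acmsd and the transporters Slc12a8 and Slc25a51, which are not enzymes of NAD synthesis. Levels on this list ran from 0.300 to 725 normalized counts per kilobase, with Nampt the highest by each of the 3 lengths. On it 5 genes exceeded the median of protein-coding genes per kilobase. They were Nampt, Nadk, Nnt, Slc25a51 and Nmnat2, named after their values had been seen, and of these Nampt and Nmnat2 are enzymes of synthesis. Nadk, which phosphorylates NAD to NADP and was singled out after its value had been seen, stood next by the longest transcript, at 724 per kilobase against 725 for Nampt. Of 22 symbols for NAD consumers, 21 were in the table, the remaining one being a synonym of another entry. Their levels ran from 30.5 to 997 normalized counts per kilobase, and 17 exceeded the median per kilobase. For the 7 sirtuins this number was 5. It was also 5 for the 8 genes on a list of the breakdown of nicotinamide, nucleosides and nucleotides. The median of each list per kilobase was 29.3 for synthesis, 207 for consumption, 139 for sirtuins and 129 for breakdown. Without division the medians were 66.5, 787, 446 and 700.3 normalized counts in the same sequence, so sirtuins and breakdown exchanged their order. The genes of the route from tryptophan, Ido1, Ido2, Tdo2, Afmid, Kmo, Kynu, Haao and Qprt, and Acmsd, which diverts that route away from NAD, had between 0.300 and 27.1 normalized counts per kilobase. They were singled out after their values had been seen.

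**Figure D4:**
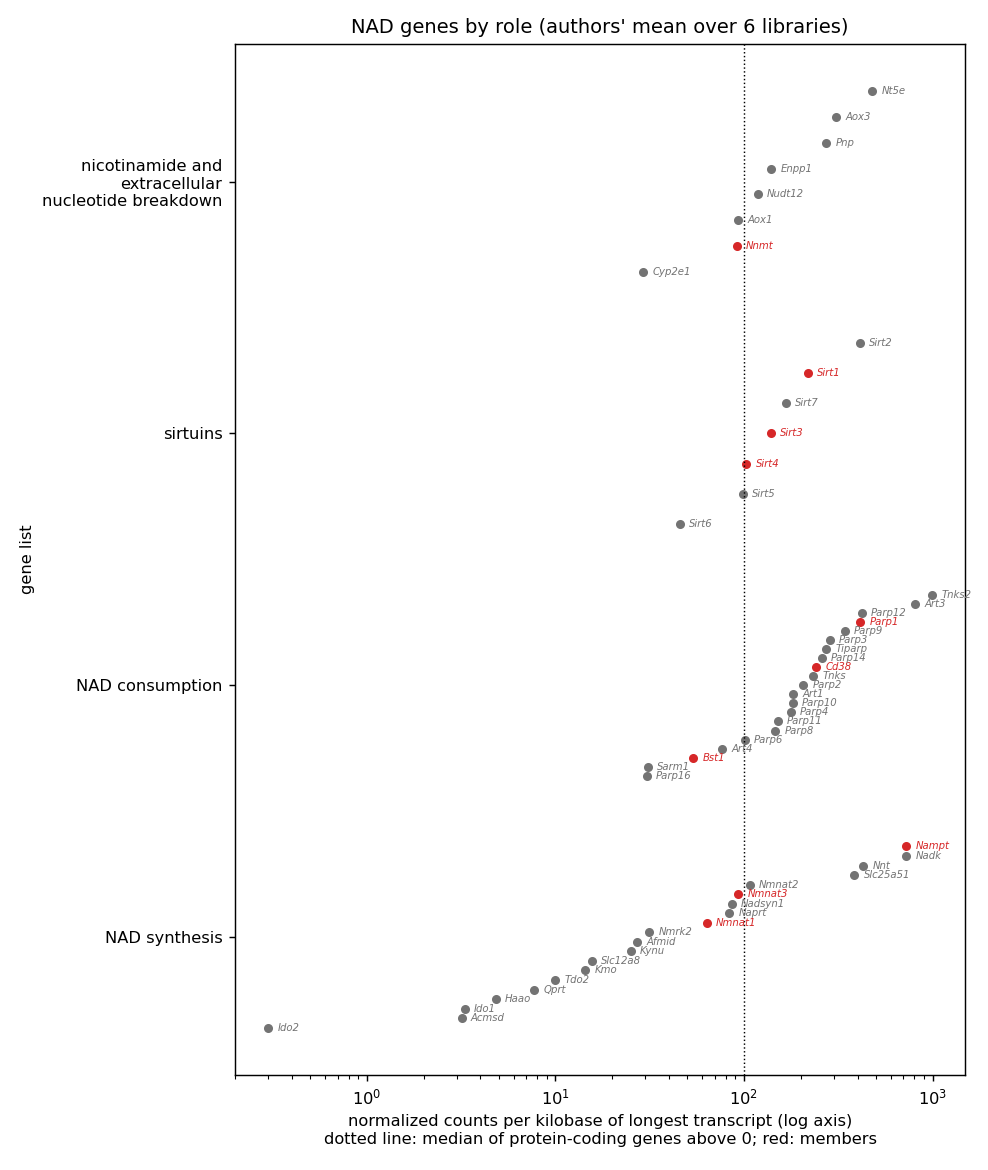
Normalized counts per kilobase of the longest transcript (log axis, authors' mean over 6 libraries) of the genes in 4 lists of NAD metabolism, 1 point per gene, members in red. The dotted line is the median of protein-coding genes at 100.2. On the list of synthesis Nampt stands highest at 725 normalized counts per kilobase, with the genes of tryptophan breakdown at the low end.

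The tissue holds several cell types, so a mean cannot be assigned to the RPE. Its defining markers were abundant. Rpe65, Rlbp1, Ttr and Lrat had between 4712 and 83745 normalized counts per kilobase, whereas Best1 had 33.6. On the same scale the pigment genes Pmel, Mlana, Tyr and Dct, listed as melanocyte markers but also used by the pigmented RPE, ran from 2116 to 27072. They do not tell these cell types apart. Fibroblast markers ran from 800.5 to 9256, rod photoreceptor markers from 1587 to 10429 and skeletal muscle markers from 4719 to 12062. Macrophage markers, of cells that are known to carry Cd38, ran from 346 to 3633, and endothelial markers from 257 to 1187. Markers of neutrophils, in which Bst1 is known, stood between 0.315 and 215, those of B and plasma cells between 12.8 and 59.9, those of T cells between 4.55 and 14.5, and those of mast cells between 179 and 331. No list had a marker at 0. The part of each cell type in the level of a member was not tested, and fewer cells of a type and less RNA per cell cannot be told apart in bulk tissue.

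**Figure D5:**
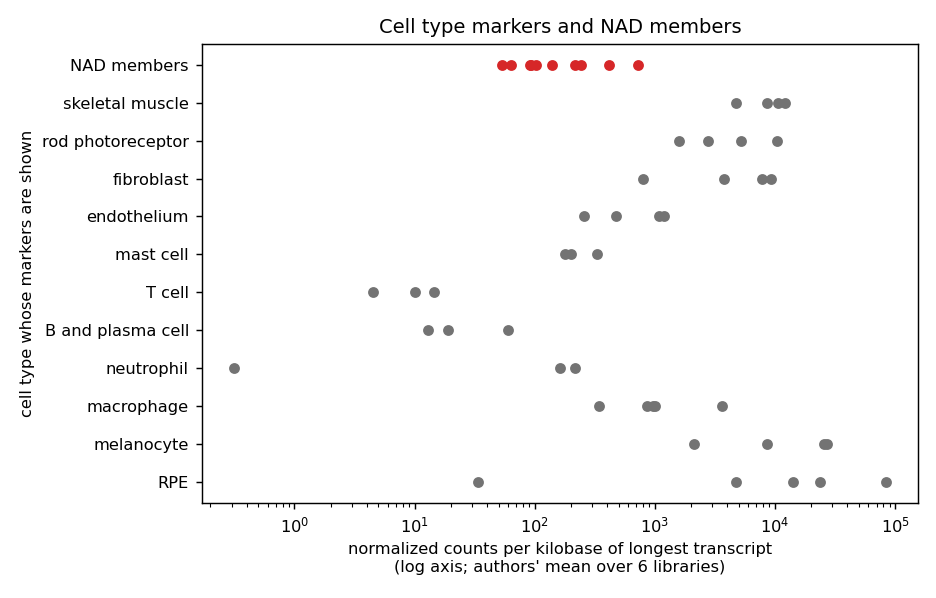
Normalized counts per kilobase of the longest transcript (log axis, authors' mean over 6 libraries) of 11 lists of cell type markers in grey and of the 10 NAD genes in red, 1 point per gene. Nampt, the highest member at 725 normalized counts per kilobase, lies below the lowest skeletal muscle marker at 4719 and the lowest rod marker at 1587.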

How the data were processed

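Total RNA from RPE/choroid of 3 young and 3 aged mice was depleted of ribosomal RNA and made into stranded libraries without selection for poly(A) tails. The authors trimmed the read pairs with BBDuk, mapped them with STAR to Ensembl transcripts of GRCm38, took TPM values from Sailfish and turned them into normalized counts by the total count, and ran DESeq2 for the comparison of ages. The table used here gives 1 line per gene. Its baseMean, a normalized signal that the authors deposited, is the mean over all 6 libraries. It held 0 columns that name a sample, so the depth per library is unknown here and no interval, floor or replicate error could be given. The other 5 columns (log2 fold change, its standard error, Wald statistic, p-value and adjusted p-value) hold the authors' own comparison of the ages and were not used. No comparison between ages was made, and the fit planned for values per library was not run.

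Symbols were matched to GENCODE M21 (GRCm38), directly or through a RefSeq synonym, which gave a length for 93.5% of genes with a mean above 0. Means were divided by the longest transcript. The union of exons and the coding length were tried in its place, and no division was added after the data had been seen. Ensembl release and GENCODE release differ, so single lengths can differ from those used by the authors. Words of 31 bases were counted in GENCODE transcripts, on the transcript strand only. Start regions came from RefSeq (GRCm38.p6). The start regions, CpG limits, motifs, word check and all 25 pairs of genes set in ratio were set with the data already in view, and the report names some of these pairs. Functions for ranks, unions and words were tested on made examples. Python 3.11.15 and pandas 2.3.3 were used. The text names the members, genes of their families and those singled out with a remark. Members, lists and markers were chosen with earlier results of these data known.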

Additional observations from a re-analysis of the deposited data

How the results depend on the processing

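No paired analysis was possible because the values used are means over all 6 libraries. For the same reason no fit between ages, replicate block, leave-one-out or other normalization was run. Ratios per kilobase were recomputed with 2 other lengths. These lengths were planned, while the 25 pairs of genes were picked with the data in view. Of these values 26 stayed within 1.5 times of the first on the same side of 1, 16 moved further and 8 turned to the other side. The factor of 1.5 was set for this purpose, as no replicate spread exists. By the union of exons, Nmnat3 to Nmnat1 turned to 0.727, Nmnat3 to Nnmt to 0.665, Sirt3 to Sirt4 to 0.970 and Sirt2 to Sirt1 to 0.957, while Nampt to Nmnat3 moved to 16.1, Nmnat2 to Nmnat3 to 2.14, Sirt1 to Sirt3 to 2.42 and Sirt5 to Sirt4 to 0.510. By coding length, Parp1 to Cd38 turned to 0.612, Sirt1 to Sirt3 to 0.906, Sirt5 to Sirt4 to 1.23 and Sirt1 to Sirt7 to 0.962. By coding length, Nmnat2 moved to 2.75 against Nmnat1 and 1.97 against Nmnat3, Nampt to 21.4 against Nadsyn1, 22.6 against Naprt, 18.5 against Nnmt and 4.22 against Parp1, Cd38 to 13.1 against Sarm1 and 1.98 against Sirt1, Nmnat3 to 2.28 against Nnmt, Parp1 to 1.21 against Sirt1 and 1.10 against Sirt3, and Sirt3 to 2.60 against Sirt4. These changes come from the length alone. Without division by length, added after the data had been seen, 10 ratios stayed within 1.5 times, 12 moved further and 3 turned. Cd38 to Sirt1 turned to 0.817, Sirt5 to Sirt4 to 1.30 and Sirt2 to Sirt1 to 0.904, while Nampt moved to 19.5 against Nmnat1, 16.3 against Nmnat3, 14.5 against Nadsyn1, 20.7 against Naprt and 34.4 against Nnmt, Nmnat2 to 2.96 against Nmnat1 and 2.47 against Nmnat3, Nmnat3 to 2.11 against Nnmt, Parp1 to 3.58 against Parp2, Tnks2 to 4.02 against Parp1, Sirt3 to 2.42 against Sirt4 and Sirt1 to 5.22 against Sirt4. Ranking among genes with a mean of at least 10, in place of all genes above 0, lowered the percentiles of Nmnat1, Nmnat3, Nnmt, Bst1 and Sirt4 by over 1.5 times, as low genes are left out by construction. The other 25 percentiles and shares stayed within 1.5 times. With the whole start region of 300 bases, an alternative added after the data had been seen, the medians by CpG were 8.35, 104 and 177 normalized counts per kilobase. Without depth per library, the precision of the lower genes is unknown.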
